A study of Homo sapiens with 24 samples.

Results

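The transcripts described here are those that GENCODE 29 labels as processed transcripts and that lie inside protein-coding genes. A processed transcript in this sense is an RNA, mostly spliced, for which no open reading frame has been annotated. Those kept had a mean TPM of 1 or more across a deposited table's 12 libraries, in genes whose other transcripts also summed to 1 TPM or more. TPM is an abundance divided by transcript length and scaled to the same total in every library. The rule found 7046 transcripts of 4226 genes among the 25235 such transcripts that the tables list. Of these, 4513 passed in the whole-cell table, 5492 in the fractionation table and 2959 in both. Just inside the threshold were 293 whole-cell transcripts from 1 to 1.1 TPM, the lowest being PSME4-208 at 1.0002 TPM. Just outside it were 352 from 0.9 to 1 TPM, the highest being ZNF519-205 at 0.9986 TPM.

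Many protein-coding genes give rise to RNAs that skip exons, start inside the gene or stop at an earlier cleavage and polyadenylation site, often within an intron. Such early sites are normally held in check by U1 snRNP and by the speed of transcription and splicing, and an RNA cut there lacks the stop codon of the full coding sequence. Annotated processed transcripts mix such RNAs with models built from partial cDNAs, whose ends need not be true 3′ ends, so an annotated end is the end of a model.

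All RNA came from A549, an established human lung adenocarcinoma line given by the labels as lung epithelial and wild type. In the whole-cell experiment, cells received a control siRNA pool or an siRNA pool against the kinase gene TAOK2, both at 30 nM, or DMSO, or compound 2. There were 3 libraries per group, from batches A, B and C, and all 12 titles carry the word mock, which the labels do not explain. Compound 2 is named in the labels as an inhibitor of TAOK2 kinase, without its dose or duration. A fractionation experiment compared both siRNA pools in total, nuclear and cytoplasmic RNA, each group having 2 libraries, from batches 1 and 2. RNA was selected for poly(A) tails and sequenced as paired reads. TPM keeps no read total, so the exact depth of each library is unknown here and no counting interval can be given. In whole cells TAOK2 RNA ranged from 8.56 to 12.5 TPM after its knockdown, where control siRNA libraries had 34.3 to 40.3 TPM, and from 20.5 to 30.7 TPM under compound 2, where DMSO libraries had 37.5 to 40.6 TPM. In the fractions it was lower with TAOK2 siRNA in each batch, but nuclear values overlapped (9.31 and 15.6 against 6.24 and 9.68 TPM). The labels do not say whether libraries of a group came from separate cultures, so p-values measure the spread between these libraries, which may be technical.

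The 5 markers of lung epithelium (KRT8, KRT18, KRT19, EPCAM and CDH1) summed to 3850 to 6880 TPM in whole cells, while the alveolar type II genes SFTPC, SFTPB, NKX2-1 and LAMP3 were each under 1 TPM in every whole-cell library. NAPSA, the fifth of that list, reached 2.25 TPM in whole cells and 12.1 TPM in nuclear RNA. The leukocyte genes PTPRC and CD3E were under 1 TPM in all 24 libraries, but CD68 held 11.3 to 63.5 TPM and CD14 1.17 to 16.5 TPM, so 2 genes of the leukocyte list were above 1 TPM throughout. The tables differ in these markers in cells with the same control siRNA. KRT19 held 113 to 124 TPM in whole cells and 0.125 and 0.364 TPM in total RNA of the fractionation experiment. EPCAM held 10.9 to 12.2 TPM against 72.9 and 93.7 TPM, and the fibroblast gene LUM 0.044 to 0.114 TPM against 17.2 and 17.5 TPM. Of the same fibroblast list, COL1A1 went the other way, at 10.4 to 13.4 TPM against 2.69 and 2.0 TPM. DCN held 0.198 to 0.262 TPM against 0.97 and 2.5 TPM, and COL1A2 and PDGFRB were under 1 TPM in every library. The part of this difference in any result set side by side across the tables was not tested. Nuclear libraries held 10.2 to 11.2% of their TPM in 4 mitochondrial messenger RNAs, against 1.74 to 2.50% in cytoplasmic libraries. Retained-intron transcripts of coding genes held 6.47 to 8.58% of all TPM in nuclear and 3.40 to 3.77% in cytoplasmic libraries. The part of mitochondrial RNA in any comparison of the fractions was not tested.

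The 3′ ends of the transcripts that changed most under compound 2 are shown first, because the position of the end is what the results turn on. Each line gives the last 30 bases from GENCODE 29 (GRCh38), 5′ to 3′ as DNA, for the 3 largest gains and the 4 largest losses of share. Capitals mark a polyadenylation signal, AATAAA or ATTAAA, where one lies in the last 50 bases.
RNF145-208 (chr5:159181960-159181989, reverse strand): ctatgaatcggtttaccacagccttaatag
SIPA1L3-208 (chr19:37907945-37907974, forward strand): tgaacatttaccagctgtgtgactttgggc
JDP2-207 (chr14:75445350-75445379, forward strand): catatgctggggctcattgactgtgctctg
DEDD2-203 (chr19:42198616-42198645, reverse strand): ttacaaatgataccaATTAAActgccctgg
EHBP1-220 (chr2:63045634-63045663, forward strand): ccaccaccacccttttcctccctcctttcc
ABCC3-204 (chr17:50673091-50673120, forward strand): cacatctttgaccacgtcatcgggccagaa
CLIP4-210 (chr2:29181729-29181758, forward strand): atctggcttggacttgagctccgaagcgcc

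Of these 7, DEDD2-203, which lost share, has a signal, ATTAAA beginning 15 bases from its end. None of the 3 that gained share has either hexamer in its last 50 bases. Over all 7046 processed transcripts, 1453 (20.6%) carried AATAAA or ATTAAA on the sense strand within the last 50 bases, with the signal starting a median of 23 bases from the end. The leading coding transcripts of the same genes carried one in 73.8% of cases, retained-intron transcripts of coding genes in 20.5% and all annotated transcripts in 31.3%. A missing hexamer says only that these letters are not in that window.

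Processed transcripts were short, with a median length of 630 bases and 4 exons, against 2580 bases and 10 exons for the most abundant coding transcript of the gene. Most ended before that coding transcript did (6030 of 7043, 85.6%), by a median of 4.47 kb over all. Measured along the gene from its 5′ to its 3′ boundary, 2000 ended in the first 50% (early ends), 2365 beyond 90% (late ends) and 2681 between (middle ends). Relative to the leading coding transcript, 1957 ended in an intron, 2147 in an exon other than the last, 1904 in the last exon and 1035 outside it. A signal was present in 18.8% of intron ends, 3.12% of ends in another exon, 32.5% of last-exon ends and 74.8% of the 714 ends within 100 bases of the coding end. The transcript start lay within 100 bases of the coding start in 1747 (24.8%).

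Reads are assigned between overlapping transcripts by a model, which is least certain where a transcript has little sequence of its own. A median of 16.1% of the 31-base words of a processed transcript occurred in no other transcript of its gene. For 732 transcripts (10.4%) there was no such word, and 1817 (25.8%) had under 5% of them.

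Levels were mostly low. In whole cells the median processed transcript held 2.36 TPM and 6.70% of the TPM of its gene, and 321 of 4513 were the most abundant tested transcript of their gene. In the fractionation table the medians were 2.59 TPM and 8.73%, and 653 of 5492 were the most abundant. The highest mean level belonged to RPS4X-202, of a small-subunit ribosomal protein gene, at 946 to 1061 TPM in DMSO and 59.3 to 64.2% of its gene in every whole-cell library. It ends in an intron at 14.1% of the gene but only 2213 bases before the coding end, as the gene's boundaries reach beyond the coding transcript. Of its 31-base words, 5.0% are its own. RPL37-202, of a large-subunit protein gene, held 54.1 to 57.2% of its gene in the whole-cell libraries, and PSMA4-203, of a proteasome subunit gene, 45.8 to 49.99%. RPL37-202 ends at 28.6% of its gene and so counts as an early end, but this lies beyond the end of its coding transcript. PPP2CA-201, of the phosphatase 2A catalytic subunit gene, held 48.5 to 56.7%. The highest shares at 5 TPM or more were those of NGRN-201 (92.7 to 97.0%), ABHD12B-206 (70.9 to 91.3%) and ITGAE-207 (78.7 to 86.8%). The whole class made up 2.74 to 3.08% of whole-cell TPM, 3.88 to 5.50% in nuclear and 2.80 to 3.30% in cytoplasmic libraries.

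Few processed transcripts passed the test of usage with TAOK2 siRNA. Usage, the log2 odds of a transcript against the rest of its gene with 0.5 TPM added to both, was compared by limma across all 41006 transcripts tested. With TAOK2 siRNA, 2 of 4513 processed transcripts were higher and 2 lower at adjusted p under 0.05, against 0.0488% and 0.039% of all transcripts tested. At unadjusted p under 0.05 there were 215 higher and 274 lower, together 10.8% of processed transcripts against 10.6% of all transcripts. With batch as a block 1 was higher and 1 lower.

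HOMEZ-202, from a homeobox and leucine zipper gene, ends in an intron at 53.5% of the gene. Control siRNA libraries had 63.7, 67.9 and 67.2% of HOMEZ TPM in it and knockdown libraries 49.8, 51.6 and 50.9%, so the groups did not overlap. Its usage fell by 0.85 ± 0.13 on the log2 scale (SE, limma adjusted p = 0.0469, n = 3 and 3), and with batch as a block its adjusted p was 0.0809. CDS2-206, of a CDP-diacylglycerol synthase gene, held 8.75, 7.29 and 9.64% in control siRNA libraries and 2.92, 0.934 and 0.652% after knockdown. These groups did not overlap either, and its usage fell by 2.25 ± 0.34 (adjusted p = 0.0469 by limma, and 0.0752 with the block). Both transcripts were chosen by this contrast, so the separation of their groups is no further test. With 1 library left out, HOMEZ-202 missed the threshold in each of 6 cases (adjusted p = 0.0811 to 0.16 by limma) and CDS2-206 in 5 of 6 (0.113 to 0.187), the other being without TAOK2 siRNA library A (0.0164).

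The 2 with higher usage, AMN1-210 and OAF-203, have means under 5 TPM, fall outside the naming rule and are named after their values were seen. Both end in introns, at 35.5% and 34.5% of their genes. AMN1-210 went from 12.2 to 12.9% with control siRNA to 26.5 to 31.6% with TAOK2 siRNA (1.43 ± 0.21, adjusted p = 0.0423 by limma, and 0.0487 with the block). Its own level was 2.51 to 2.82 TPM and then 3.09 to 3.23 TPM, while all AMN1 transcripts summed to 19.7 to 23.2 TPM and then 9.78 to 12.2 TPM. OAF-203 went from 9.12 to 12.2% to 17.4 to 29.2% (1.40 ± 0.21, adjusted p = 0.0476 by limma, and 0.0724 with the block). Its own level did not go up, at 1.09 to 1.58 TPM and then 0.737 to 1.40 TPM, and its gene's TPM went from 11.5 to 13.9 to 4.13 to 4.86. With 1 library left out, AMN1-210 missed the threshold in each of 6 cases (adjusted p = 0.113 to 0.171) and OAF-203 in 5 of 6 (0.113 to 0.197), the other being without TAOK2 siRNA library C (0.0452).

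In levels, on log2(TPM + 1), 30 processed transcripts (0.665%) were higher and 92 (2.04%) lower with knockdown, against 1.62% and 3.58% of all 43418 transcripts. The median change of all transcripts was -0.04 and that of processed transcripts was -0.04 as well. With 1 library left out in turn, the count of changed levels fell from 122 to between 43 and 70, and each of the 6 siRNA libraries had this effect.

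Compound 2 had a much broader effect, and its direction followed the position of the transcript end. Of 4513 processed transcripts, 1142 gained and 651 lost share against DMSO, where 16.6% of all transcripts tested were higher and 18.1% lower. Among the 1439 with early ends, 571 (39.7%) were higher and 108 (7.51%) lower, with a median difference in log2 odds of 0.46. Among the 1332 with late ends, 150 (11.3%) were higher and 314 (23.6%) lower, with a median of -0.14. Of all early-ending transcripts tested 31.2% were higher and 8.99% lower, and of all late-ending ones 11.0% and 22.7%. Late-ending processed transcripts were thus near the shares of all late ends. Transcripts ending in an intron of the coding transcript were higher in 546 of 1378 cases and lower in 163, while those ending in its last exon were higher in 131 of 1159 and lower in 243. Shares of all transcripts with ends in introns or last exons were not made. These counts include transcripts that did not reach 1 TPM in the siRNA libraries.

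**Figure D1:**
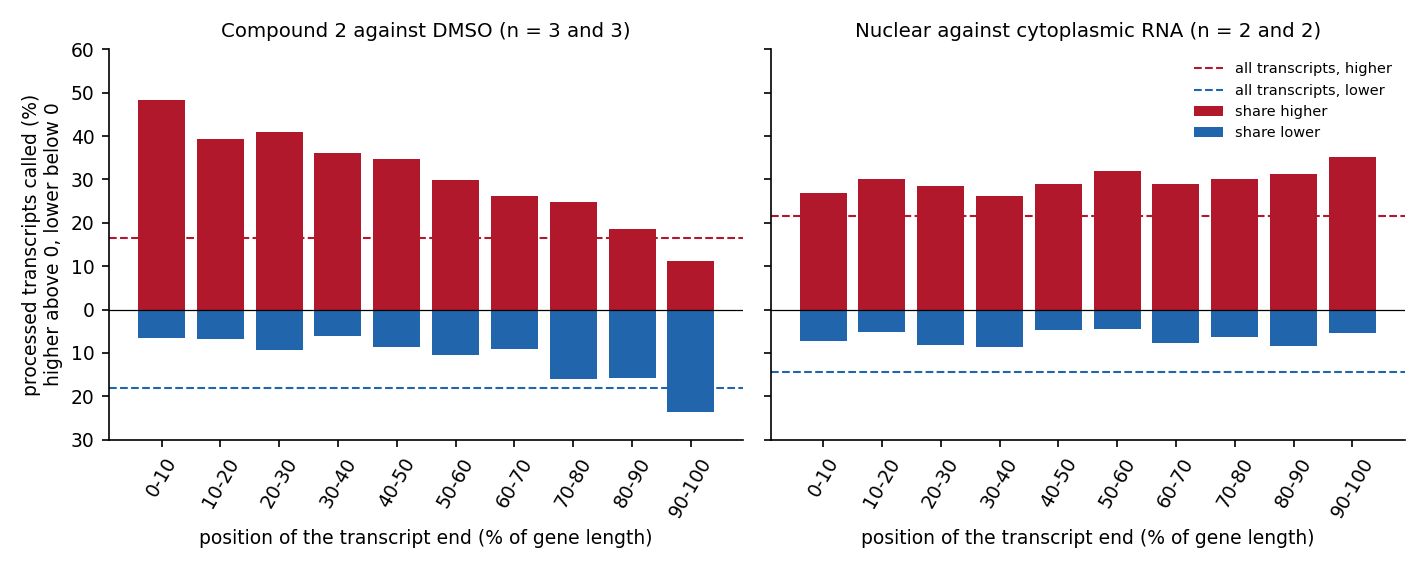
Share of processed transcripts called higher (red, above 0) or lower (blue, below 0) in usage at adjusted p under 0.05, in 10 bins of the end position along the gene, with dashed lines for all transcripts tested. Under compound 2 the share called higher went from 48.4% in the bin nearest the gene start to 11.3% in the last, while in nuclear against cytoplasmic RNA it stayed between 26.2 and 35.2%. The bins include transcripts that did not reach 1 TPM in libraries outside the contrast. The dashed lines pool all ends. By end class, 31.2% of all early-ending and 11.0% of all late-ending transcripts tested were higher under compound 2. In nuclear RNA these shares were 28.0% and 16.7%.

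The step through the gene was gradual. In the first 10% of the gene, 132 of 273 transcripts (48.4%) were higher and 18 lower. The share called higher was 34.7% for ends at 40 to 50% of the gene, 26.1% at 60 to 70% and 11.3% beyond 90%. The share called lower went from 6.59% to 23.6% over the same bins. Shares of all transcripts in these bins were not made. Over processed transcripts that reached 1 TPM in the siRNA libraries, 33.1% of early, 19.7% of middle and 9.91% of late ends were higher. All transcripts chosen so had 25.4%, 16.4% and 10.2% higher. The same order was seen within genes: in 149 genes with both an early and a late processed transcript, the early one had the larger change in 115 (77.2%), by a median of 0.90. Over the transcripts that reached a mean of 1 TPM in the siRNA libraries, which this contrast does not use, it was so in 92 of 126 genes (73.0%), by a median of 0.78. Under TAOK2 siRNA this was so in 68 of the 149 genes, with a median difference of -0.08.

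Gains of early-ending transcripts were more frequent in long genes. In genes of at least 50 kb, 355 of 701 (50.6%) were higher and 43 lower, with a median difference of 0.80. In genes of 10 to 50 kb the counts were 194 (31.8%) and 51 of 611, with a median of 0.32, and in genes under 10 kb 22 (17.3%) and 14 of 127, with a median of -0.08. All early-ending transcripts tested showed the same order, with 45.1%, 24.3% and 11.5% higher in these length classes and medians of 0.59, 0.17 and -0.03. Over transcripts that reached 1 TPM in the siRNA libraries, 42.1%, 27.8% and 15.8% of early-ending processed transcripts were higher. A polyadenylation signal within the last 50 bases was present in 230 of the 1439 early-ending transcripts, and of these 117 (50.9%) were higher and 17 lower. Of the 1209 without one, 454 (37.6%) were higher and 91 lower. With the same restriction these shares were 40.3% of 186 and 31.8% of 1051, and the medians, 0.67 and 0.42 before, were 0.39 and 0.33. Among early ends with at least 5% of 31-base words of their own, 501 of 1181 were higher and 95 lower, and among the rest 70 of 258 and 13.

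A transcript that reaches 1 TPM only through compound 2 libraries must differ, so the counts were also made over transcripts with a mean of at least 1 TPM in the siRNA libraries, which this contrast does not use. Of 4087 such processed transcripts, 846 (20.7%) were higher and 648 (15.9%) lower, against 14.1% and 19.0% of all transcripts chosen in the same way, with a median of 0.06. Among their early ends 409 of 1237 (33.1%) were higher and 108 lower, and among their late ends 126 of 1271 were higher and 312 lower. All transcripts chosen so had 25.4% higher and 10.1% lower among early ends, and 10.2% and 23.2% among late ends. The 426 that did not reach 1 TPM there held 296 of the 1142 gains.

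In each library, early-ending processed transcripts summed to 7.81 to 8.74% of the TPM of their genes under compound 2 and 6.25 to 6.62% in DMSO. Late-ending ones summed to 5.18 to 5.55% under compound 2 and 6.35 to 6.45% in DMSO. The groups did not overlap in either class. These sums include transcripts that did not reach 1 TPM in the siRNA libraries, so the filter itself can have a part in the early-end gain. Sums without those transcripts were not made. Middle ends overlapped, at 6.94 to 7.48% and 6.71 to 7.25%. With control and TAOK2 siRNA, early ends held 6.32 to 7.16% and 6.17 to 6.52%.

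**Figure D2:**
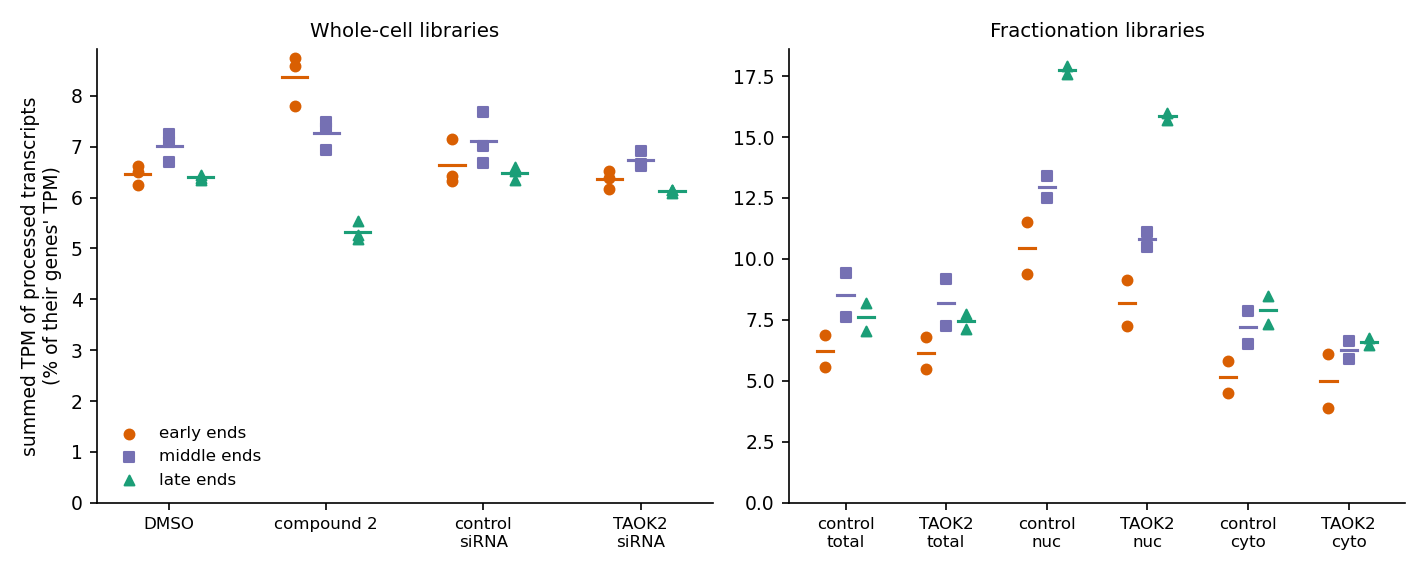
Summed TPM of processed transcripts with early, middle and late ends as a percent of the TPM of their genes, 1 point per library, with a bar at the group mean and one axis per table. The 3 compound 2 libraries have the highest early-end values, 7.81 to 8.74%, and the lowest late-end values, 5.18 to 5.55%, of the 12 whole-cell libraries. The sums include transcripts that pass the filter only through compound 2 libraries.

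The 8 largest gains were of transcripts of 520 to 721 bases with 2 to 4 exons, and 7 of them begin within the first 0.5% of the gene, HIF1A-208 being the exception at 58.6%. RNF145-208, of a RING finger ubiquitin ligase gene, has 4 exons and ends at 53.4% of the gene, inside an exon. It held 2.37, 2.06 and 2.68% of RNF145 TPM in DMSO and 62.7, 59.9 and 54.9% under compound 2. Its level went from 2.77, 2.16 and 2.89 TPM to 53.9, 62.7 and 43.1 TPM, and its usage rose by 5.65 ± 0.21 (log2 odds ± SE, limma adjusted p = 4.04e-08).

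SIPA1L3-208 has 2 exons of a gene for a signal-induced proliferation-associated protein, and its end lies at 0.2% of the gene, 300398 bases before that of the coding transcript. Its share was 2.96, 2.50 and 2.01% in DMSO and 61.5, 56.2 and 60.6% under compound 2 (5.46 ± 0.20, adjusted p = 4.04e-08 by limma). ESCO1-203 belongs to the gene of a cohesin acetyltransferase and ends in an intron at 11.0% of the gene. It was already 16.8, 18.5 and 14.3% of ESCO1 TPM in DMSO and made up 91.6, 88.7 and 91.9% under compound 2, where gene TPM went from 9.22 to 12.4 to 20.1 to 22.5. Its usage rose by 5.07 ± 0.20 (adjusted p = 4.21e-08 by limma). Neither transcript, each chosen by this same contrast, had groups that overlapped.

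SMG1-213 lies in the gene of the kinase that phosphorylates UPF1 in nonsense-mediated decay, and its end is at 1.3% of the gene, 120063 bases before the coding end. It went from 4.10, 2.92 and 2.57 TPM to 74.6, 84.6 and 58.1 TPM, and its share from 5.10 to 7.03% to 59.4 to 64.4%. SMG1 has near-identical pseudogene copies, so its values are uncertain. HIF1A-208, of the oxygen-regulated transcription factor gene, ends in an exon at 60.9% of the gene and went from 0.326 to 0.809% to 13.6 to 18.4% (4.41 ± 0.27, adjusted p = 4.99e-07 by limma).

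The other 3 were JDP2-207, of an AP-1 repressor gene, RSF1-208, of a chromatin remodelling subunit gene, and SH3BP4-209, of an endocytosis gene. All 3 end in introns, at 38.1%, 4.8% and 1.2% of their genes. Their shares went from 1.81 to 2.98%, 6.81 to 7.93% and 3.21 to 6.69% in DMSO to 49.9 to 54.1%, 64.3 to 75.7% and 60.3 to 65.0% under compound 2. SH3BP4-209 is the only one of the 8 with a polyadenylation signal in its last 50 bases, starting 21 bases from the end. Of the 8 largest gains, 6 end in introns and 2 in exons of the coding transcript. None of the 8 passed the test under TAOK2 siRNA.

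**Figure D3:**
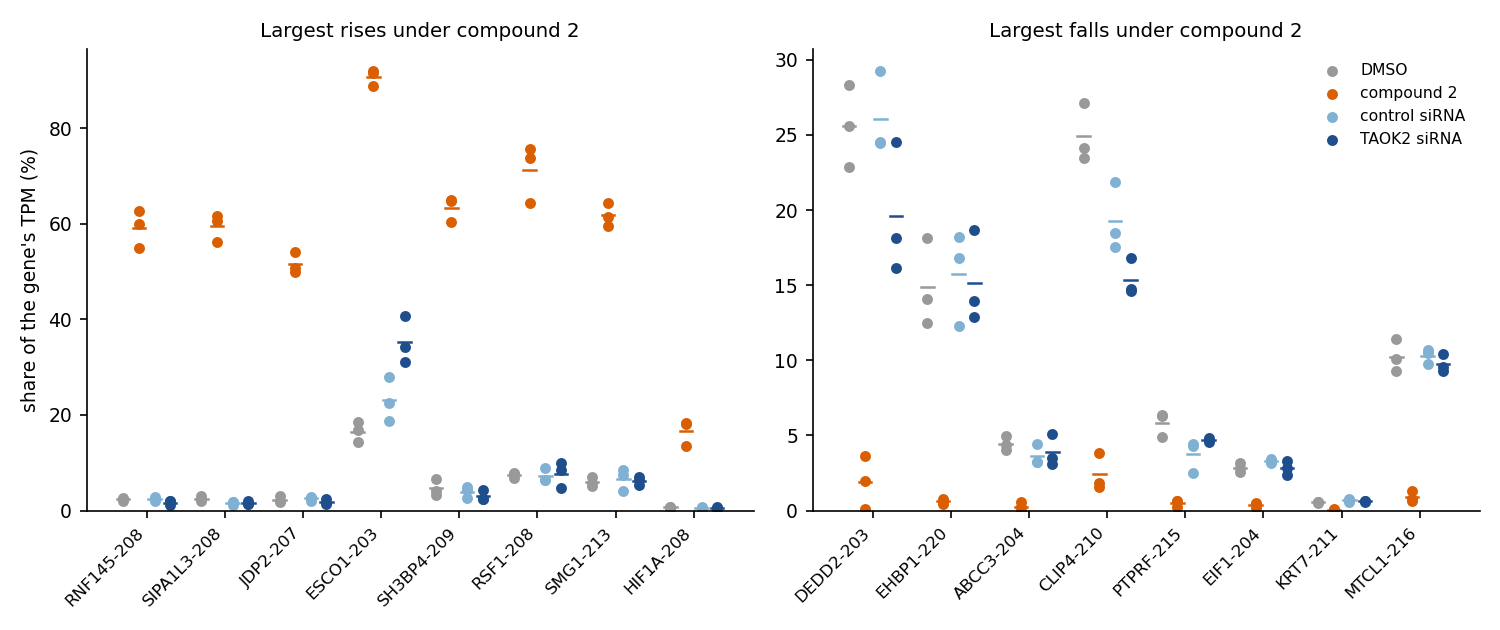
Share of the gene's TPM held by the 8 processed transcripts with the largest gains (left) and losses (right) under compound 2, 1 point per library and a bar at the mean, in the 4 whole-cell groups of 3. The compound 2 points stand apart from DMSO in all 16, and control and TAOK2 siRNA points do not reach the compound 2 points. The 16 were chosen by this contrast, with the same sign in every batch, so their separation from DMSO is no further test.

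Of the 8 largest losses, 5 were of transcripts with late ends. DEDD2-203, of a death effector domain gene, reaches 99.9% of its gene and held 25.6, 28.4 and 22.9% of its TPM in DMSO and 1.99, 0.0963 and 3.61% under compound 2. Its usage fell by 3.73 ± 0.45 (limma adjusted p = 6.76e-05), but it has no 31-base word of its own. EHBP1-220, of an endocytic adaptor gene, ends at 99.8% of its gene and went from 14.1, 12.5 and 18.1% to 0.568, 0.461 and 0.787% (fell by 3.67 ± 0.24, adjusted p = 7.60e-07 by limma). CLIP4-210 held 23.4 to 27.1% in DMSO and 1.60 to 3.86% under compound 2, and 60.3% of its words are its own.

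ABCC3-204, of an organic anion transporter gene, ends in an exon at 66.7% of the gene and went from 9.36 to 14.7 TPM to 0.517, 0 and 1.14 TPM. EIF1-204, of an initiation factor gene that acts in start codon selection, went from 46.6 to 51.6 TPM to 4.16 to 8.92 TPM, with 3.6% of its words its own. Its control siRNA share was 3.17 to 3.43% in the whole-cell table but 31.6 and 30.2% in total RNA of the fractionation table. EIF1-201, another processed transcript of the gene, did not pass (0.12 ± 0.12, adjusted p = 0.464 by limma) at 407 to 475 TPM in DMSO and 502 to 544 TPM under compound 2. PTPRF-215, MTCL1-216 and KRT7-211, of a receptor phosphatase, a microtubule crosslinking protein and a keratin of simple epithelia, had differences of -2.97, -2.77 and -2.85 (adjusted p = 3.64e-06, 6.94e-07 and 7.93e-07 by limma). For these 3 losses too, all chosen by this same contrast, no DMSO library overlapped a compound 2 library. MTCL1-216 is not spliced and has 1 exon of 2856 bases.

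Groups of host genes were set by symbol patterns, and their counts are read against the 25.3% higher and 14.4% lower of all processed transcripts and the 16.6% and 18.1% of all transcripts. Of 94 processed transcripts of splicing factor and RBM genes, 36 (38.3%) were higher and 10 lower under compound 2, with a median of 0.32, but over those that reached 1 TPM in the siRNA libraries 25 of 83 (30.1%) were higher, with a median of 0.10. The most abundant, RBM3-204 and SNRPB2-203, did not pass (adjusted p = 0.590 and 0.408 by limma). Cytosolic ribosomal protein genes had 8 higher (14.0%) and 7 lower (12.3%) of 57, genes of the respiratory chain 5 (9.43%) and 13 (24.5%) of 53, and translation factor genes 7 and 2 of 25. Chaperone genes had 6 and 3 of 27, aminoacyl-tRNA synthetase genes 3 and 4 of 23, proteasome genes 4 and 1 of 17 (0 and 1 of 13 with the restriction) and actin and tubulin genes 1 and 3 of 12. In the last group, which includes tropomyosins, TPM4-212 went from 0.876 to 0.949% to 0.455 to 0.498% of its gene (fell by 0.83 ± 0.15, adjusted p = 0.000954 by limma).

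The only TAO kinase gene with a processed transcript here was TAOK3. TAOK3-217 held 2.42, 4.74 and 8.38% of TAOK3 TPM in DMSO and 9.44, 8.45 and 9.56% under compound 2 (0.98 ± 0.31, adjusted p = 0.0303 by limma). Its level was 0.499 to 1.41 TPM and 0.802 to 0.942 TPM, and it has no 31-base word of its own.

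In bulk RNA, fewer cells of a kind and less RNA per cell cannot be told apart. In TPM itself, 830 processed transcripts were higher and 1396 lower under compound 2, against 12.4% and 38.9% of all transcripts. The median of all transcripts moved by -0.28 on log2(TPM + 1), and that of processed transcripts by -0.16. When each library was centred on its median, 1238 were higher and 908 lower. Early ends had 407 higher and 323 lower levels of 1439, and late ends 108 and 561 of 1332.

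The difference between the effect of compound 2 and that of TAOK2 siRNA was tested as an interaction. The change under compound 2 was above that under knockdown for 869 processed transcripts and below it for 416, where 11.8% and 13.1% of all transcripts passed in these directions. Among early ends 441 of 1439 were higher under compound 2 than under knockdown and 68 lower, and among late ends 111 of 1332 and 204. These counts were not repeated without the transcripts that pass the filter only through compound 2 libraries. CDS2-206 and HOMEZ-202, whose usage fell with TAOK2 siRNA, had higher usage under compound 2. CDS2-206 went from 5.92 to 11.4% in DMSO to 27.5 to 31.3% (2.22, adjusted p = 0.000378 by limma), and HOMEZ-202 from 67.9 to 70.7% to 96.3 to 97.1% (2.14, adjusted p = 3.66e-07). The level of HOMEZ-202 did not pass (-0.18 on log2(TPM + 1), adjusted p = 0.264 by limma), at 6.65 to 7.44 TPM in DMSO and 5.06 to 7.03 TPM under compound 2, and its gene's TPM went from 9.60 to 11.0 to 5.24 to 7.30.

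Other transcript classes showed an order by end position too. Among early-ending coding transcripts 904 of 2992 (30.2%) were higher under compound 2 and 232 (7.75%) lower, and among late-ending ones 1890 of 17535 (10.8%) and 3859. Early-ending decay transcripts, annotated as targets of nonsense-mediated decay, had 126 higher and 27 lower of 477. Retained-intron transcripts had 379 and 204 of 1463 with early ends and 234 and 674 of 2014 with late ends. The median difference for early ends was 0.46 in processed, 0.29 in decay, 0.28 in coding and 0.10 in retained-intron transcripts. The differences between classes were not tested.

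**Figure D4:**
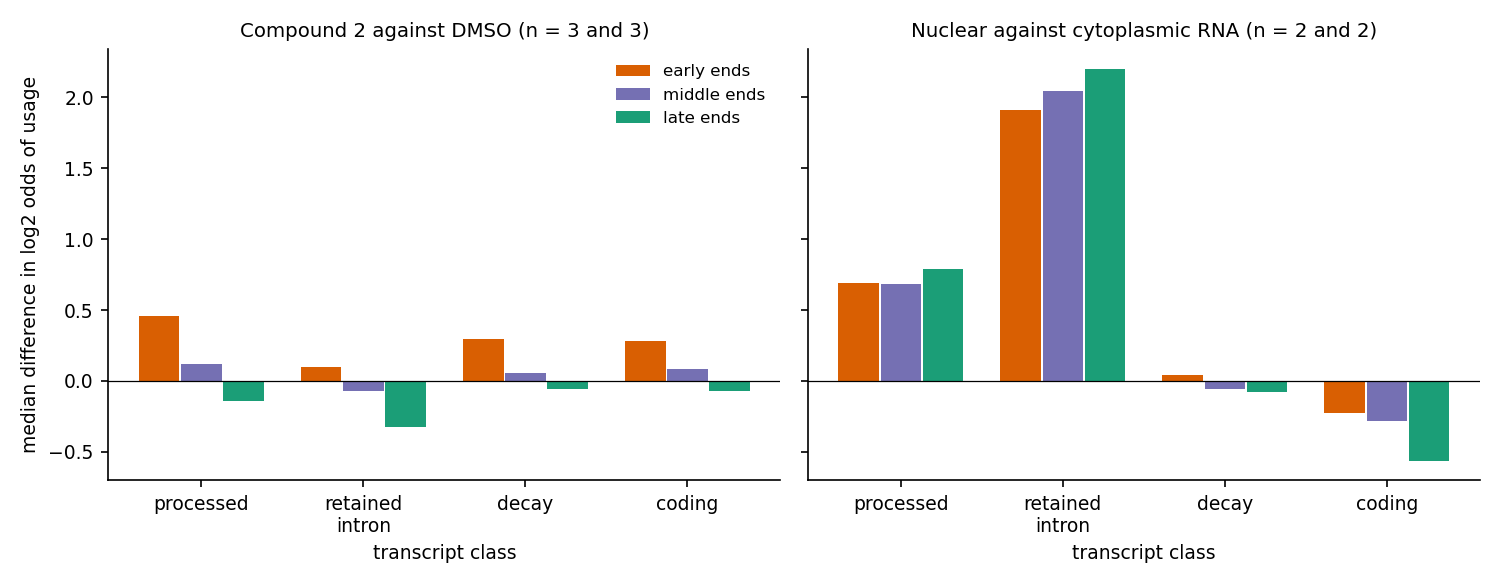
Median difference in log2 odds of usage by transcript class and end position, for compound 2 against DMSO (left) and nuclear against cytoplasmic RNA with control siRNA (right). Under compound 2 early ends lie above late ends in all 4 classes, and in the fractions processed transcripts (0.68 to 0.79) lie between retained-intron (1.91 to 2.20) and coding transcripts (-0.56 to -0.22).

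Nuclear RNA held larger shares of processed transcripts than cytoplasmic RNA. With control siRNA, 1739 of 5492 were higher in nuclear and 347 higher in cytoplasmic RNA, against 21.6% and 14.4% of all 41169 transcripts tested in these directions. The median difference in log2 odds was 0.72, while all transcripts had -0.04. Retained-intron transcripts had 4406 higher and 190 lower of 7678 (median 2.07), decay transcripts 545 and 366 of 3239 (-0.06) and coding transcripts 2131 and 4912 of 24173 (-0.47). In TPM, 2427 processed transcripts were higher in nuclear and 382 in cytoplasmic RNA, against 31.1% and 13.5% of all transcripts. The median of all transcripts was 0.23 on this scale and that of processed transcripts 1.04, and after centring on the library median 1675 were higher and 939 lower.

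In all 3 end classes more processed transcripts were higher than lower in nuclear RNA. Early ends had 387 higher (28.1%) and 94 lower of 1378, middle ends 636 (30.5%) and 145 of 2082 and late ends 716 (35.2%) and 108 of 2032. Of all transcripts tested, 28.0% of early, 28.3% of middle and 16.7% of late ends were higher, and 10.5%, 10.3% and 17.5% lower. In the share called higher, early and middle ends of processed transcripts were thus near all such ends. The counts by end class include transcripts that did not reach 1 TPM in total RNA, which this contrast does not use. Over those that did, 253 of 1071 early, 434 of 1670 middle and 434 of 1478 late ends were higher. In the same order, 90, 133 and 93 were lower. Of all transcripts chosen so, 1134 of 4929 early, 2279 of 9859 middle and 2373 of 19946 late ends were higher. The difference between the end classes was not tested. In 201 genes with both an early and a late processed transcript, the early one had the larger nuclear excess in 100. Over transcripts that reached 1 TPM in total RNA, it was so in 56 of 117 genes. Ends in introns had 547 higher and 68 lower of 1455, with a median of 1.18, and ends in the last exon 558 and 106 of 1598, with a median of 0.73. Shares of all transcripts with ends in introns or last exons were not made. Transcripts that share the coding start had a median of 0.27 and those that do not 0.89. These medians, and the values for introns and last exons, include transcripts that did not reach 1 TPM in total RNA.

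The excess was found among transcripts that can be told apart by sequence. With at least 5% of 31-base words of their own, 1596 of 4115 were higher in nuclear and 189 in cytoplasmic RNA, with a median of 1.16. With under 5%, 143 of 1377 were higher and 158 lower, with a median of -0.26. Over the 4219 that reached 1 TPM in total RNA, which this contrast does not use, 1121 (26.6%) were higher and 316 (7.49%) lower, against 16.7% and 16.3% of all transcripts chosen so, with a median of 0.46.

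KLF5-202, of a zinc finger transcription factor gene, held 64.9 and 59.8% of KLF5 TPM in nuclear RNA and 1.03 and 0% in cytoplasmic RNA, with 9.35 and 3.72% in total RNA. It has 130 bases in 2 exons, and TPM weights so short a transcript strongly. Its usage was higher by 7.56 ± 0.87 (limma adjusted p = 0.000297, n = 2 and 2). HERPUD1-216, of an endoplasmic reticulum stress gene, held 34.5 and 43.5% in nuclear RNA and was listed at 0 in both cytoplasmic libraries (adjusted p = 3.69e-05 by limma).

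RPL41-206, of a large-subunit ribosomal protein gene, held 10.7 and 10.6% in nuclear against 0.129 and 0.0342% in cytoplasmic RNA. TYSND1-204, of a peroxisomal protease gene, made up 93.0 and 97.7% in nuclear and 5.71 and 8.58% in cytoplasmic RNA. CRLS1-205, of the cardiolipin synthase gene, held 56.7 and 56.4% against 1.49 and 0%. For all 5 the total RNA lay between the fractions.

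Some processed transcripts held a larger share of their gene in cytoplasmic RNA. PTOV1-210 ends at 99.8% of its gene, 19 bases before the coding end, and held 64.9 and 66.0% in cytoplasmic and 0.211 and 0.407% in nuclear RNA (difference of -7.85 ± 1.06, limma adjusted p = 0.00067). PNISR-210, of a nuclear SR-related protein gene, held 40.7 and 41.8% in cytoplasmic and 2.14 and 1.98% in nuclear RNA. In this gene the nuclear TPM of all transcripts was 166.8 and 239.7 against 20.8 and 27.6 in cytoplasm.

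BAIAP2L1-202, of a membrane-bending actin regulator gene, held 35.7 and 46.4% against 0.805 and 1.85%. COMMD6-206 held 28.2 and 16.4% and was listed at 0 in both nuclear libraries with control siRNA. Its nuclear usage was higher by 3.405 ± 0.525 with TAOK2 siRNA, with the same sign in every batch, but did not pass after adjustment. CCDC57-219 held 66.3 and 52.4% against 9.59 and 1.77%, so its nuclear libraries were far apart but did not overlap the cytoplasmic ones. The level of CCDC57-219 did not pass (-1.04 ± 0.80 on log2(TPM + 1), adjusted p = 0.336 by limma). In these 5 transcripts with a larger cytoplasmic share, 5.8 to 8.2% of the 31-base words are their own.

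**Figure D5:**
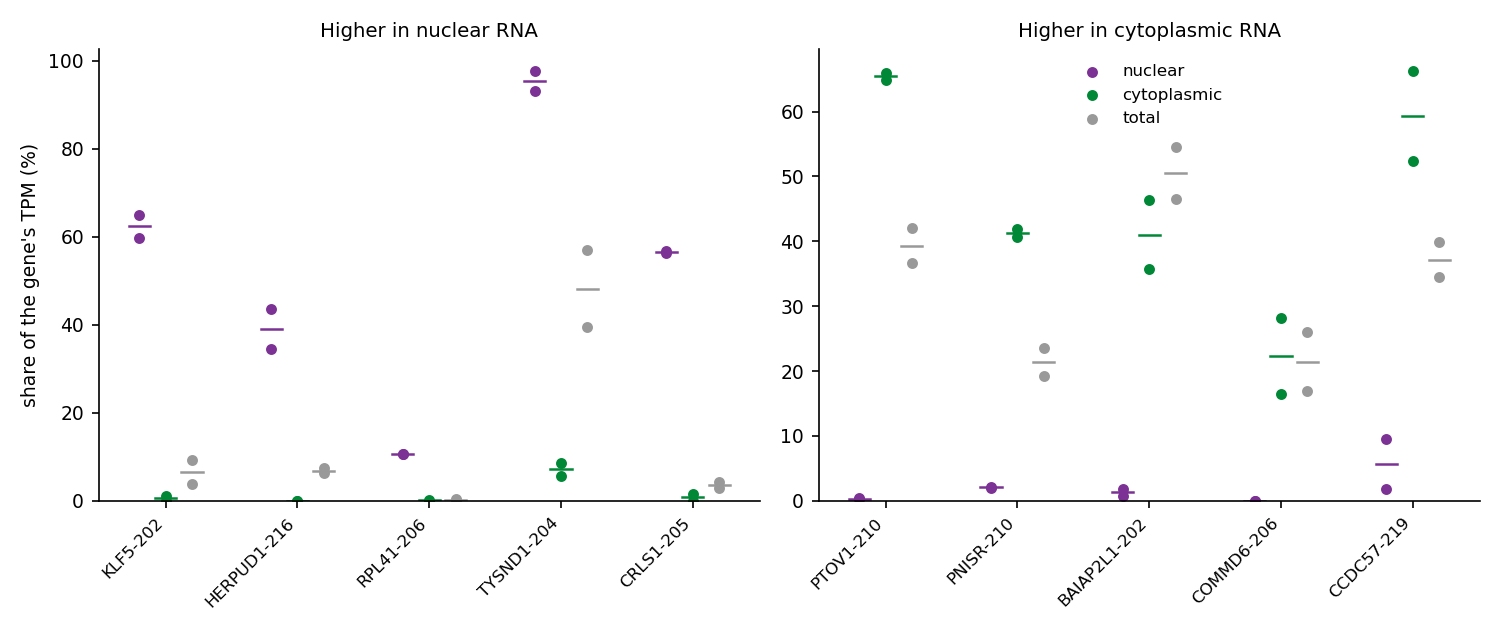
Share of the gene's TPM held by the 5 processed transcripts with the largest nuclear (left) and the 5 with the largest cytoplasmic excess (right), with control siRNA, 1 point per library and a bar at the mean of 2. Nuclear and cytoplasmic points do not overlap in any of the 10. The 10 were chosen by this contrast, with the same sign in every batch, so that separation is no further test. Total RNA lies between the group ranges except for BAIAP2L1-202 and COMMD6-206, where it meets or passes the cytoplasmic points.

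By host gene, against 31.7% higher and 6.32% lower of all processed transcripts, 30 of 52 processed transcripts of cytosolic ribosomal protein genes (57.7%) were higher in nuclear RNA and 0 lower at adjusted p under 0.05 by limma, with a median of 3.09. In TPM 25 of the same 52 were higher in nuclear RNA and 10 lower. Over those that reached 1 TPM in total RNA, 24 of 46 (52.2%) were higher in usage, where 26.6% of all such processed transcripts were. Aminoacyl-tRNA synthetase genes had 15 higher (48.4%) and 1 lower of 31 and respiratory chain genes 28 (38.9%) and 3 of 72. With the same restriction these were 12 of 28 (42.9%) and 18 of 61 (29.5%) higher, the latter near the 26.6%. All transcripts tested, without the restriction, had 21.6% higher and 14.4% lower. Proteasome genes, with 7 (35.0%) and 1 of 20, and splicing factor and RBM genes, with 38 (34.9%) and 7 of 109, were near the share of all processed transcripts. TPM4-212 of the tropomyosin gene held 15.7 and 13.7% in nuclear and 0.710 and 0.714% in cytoplasmic RNA. RPS4X-202 and RPL37-202, the 2 most abundant processed transcripts in whole cells, were not among those that differed (adjusted p = 0.933 and 0.895 by limma). Their shares differed more between batches than between fractions: RPS4X-202 held 69.9 and 48.1% in cytoplasmic and 64.7 and 49.4% in nuclear RNA. ITGAE-207 and NGRN-201 held more of their genes in cytoplasm (83.2 and 85.0% against 37.9 and 18.02%, and 95 and 95.2% against 84.6 and 87.0%).

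TAOK2 siRNA in the fractions gave no processed transcript that passed. In total, nuclear and cytoplasmic RNA 0 of 5492 were higher and 0 lower by limma at adjusted p under 0.05, and 0% of all transcripts were called higher or lower. At unadjusted p under 0.05 the counts were 142 (2.59%), 115 (2.09%) and 256 (4.66%), against 1.99%, 2.88% and 5.05% of all transcripts. The effect of knockdown on the difference between nuclear and cytoplasmic usage likewise passed for 0 processed transcripts (0% of all), with 128 (2.33%) at unadjusted p under 0.05. Without the TAOK2 siRNA cytoplasmic library of batch 2, 14 passed in cytoplasmic RNA. Early ends held 9.40 and 11.5% of their genes in control nuclear RNA and 7.24 and 9.14% after knockdown, and late ends 17.6 and 17.9% against 16.0 and 15.7%.

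The 2 tables share no library, so compound 2 and the fractions can be set side by side for the 2959 processed transcripts in both. Of the 610 that were higher under compound 2, 168 (27.5%) were higher in nuclear RNA and 50 (8.20%) in cytoplasmic RNA, close to the 26.7% and 8.23% of the 1834 not called under compound 2. Of the 515 that were lower under compound 2, 271 (52.6%) were higher in nuclear and 35 (6.80%) in cytoplasmic RNA. Among all transcripts tested in both tables, 21.8% of those higher, 25.8% of those lower and 16.0% of those not called under compound 2 were higher in nuclear RNA. The part of the difference between the tables in these counts was not tested. Of the 929 with a nuclear excess, 168 (18.1%) were higher and 271 (29.2%) lower under compound 2.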

How the data were processed

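The authors quantified transcripts with kallisto on GRCh38.p14, per the submitters' processing notes (version not given in the sources used here), and deposited 2 tables of TPM for 188753 transcripts in 24 libraries. TPM divides by transcript length, so short transcripts gain weight, and reads shared by overlapping transcripts are divided by a model. Of the transcripts, 169797 (89.96%) were matched to GENCODE 29, from which types, positions and sequences were read. The leading coding transcript is the coding transcript of highest mean TPM.

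Usage was tested with limma 3.58.1 (trend and robust, statmod 1.5.0, R 4.3.3) on log2((TPM + 0.5)/(other TPM of the gene + 0.5)), and levels on log2(TPM + 1), over all transcripts of the stated filter, with group means over all 12 libraries of a table and Benjamini-Hochberg adjustment at 0.05 within a comparison. The 0.5 and 1 TPM added understate changes of low transcripts. On simulated whole-cell data the usage fit recovered 68.4% of changes of 2 on the log2 scale and 9.18% of changes of 1. On simulated fractions with 13720 transcripts changed in nuclear RNA it recovered 48.5% of changes of 4 and 19.1% of changes of 2, and with 200 changed 8.24% and 0%. Batches pair the libraries by label: same-batch residuals correlated at 0.531 to 0.837 in 30 of 30 pairs of the fractions and at -0.302 to 0.639 in whole cells, where 12 of 18 pairs were over 0.1.

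Members and lists were chosen with earlier results of these data known, and host gene patterns were narrowed after their matches were seen. Named transcripts are those at 5 TPM or more, with the same sign in every batch and adjusted p under 0.05, that had the 8 largest rises and falls for compound 2 and knockdown or the 5 largest for the fractions, with the 8 of highest level, the 5 of highest share, 2 of each host group and those of TAO kinase genes, leaving out genes with clone names. Alternatives were other added TPM, filters on level, batch as a block, TPM times length, centring on library medians, coding transcripts as the denominator, other gene boundaries and libraries left out. The fraction marker RNAs of the nucleus that were listed in advance had no matched transcript here. The end sequence of 1 further named transcript and 1 marker gene are not reported here.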

Additional observations from a re-analysis of the deposited data

Results flagged for a closer look

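The effect of compound 2 on usage differed from that of TAOK2 siRNA, by the interaction term in limma, for 1285 of 4513 processed transcripts at adjusted p under 0.05. That count includes transcripts that pass the filter only through compound 2 libraries. Among the named transcripts the difference in log2 odds, compound 2 minus knockdown, was 6.13 for RNF145-208, 5.67 for JDP2-207, 5.47 for SIPA1L3-208, 4.93 for SH3BP4-209 and 4.69 for RSF1-208. It was 4.48 for SMG1-213, 4.47 for CDS2-206, 4.26 for ESCO1-203, 4.24 for HIF1A-208 and 2.99 for HOMEZ-202. In the other direction it was -3.61 for EHBP1-220, -3.31 for PTPRF-215, -3.28 for ABCC3-204, -3.20 for DEDD2-203, -2.75 for EIF1-204, -2.73 for CLIP4-210, -2.69 for KRT7-211, -2.69 for MTCL1-216 and -1.94 for OAF-203. No group has 4 or more libraries, so single libraries were not tested as outliers.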

How the results depend on the processing

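None of the 30 values of single transcripts that were run turned direction under an alternative. They were chosen at adjusted p under 0.05 in the main fit, so this is little of a test. Transcripts named only by level, share, host group or TAO kinase gene were not run. The balance of level calls under compound 2 did turn, from 830 higher and 1396 lower to 1238 and 908 after centring on library medians. A filter of 5 TPM, which leaves fewer transcripts, gave 421 usage calls under compound 2 (117 early ends higher and 22 lower, 44 late ends higher and 81 lower), 311 for compound 2 minus knockdown, 509 for nuclear minus cytoplasmic, and 561 and 740 level calls for compound 2 and for nuclear minus cytoplasmic. With no filter, 316 late ends were higher under compound 2. The knockdown counts rest on the setting: usage calls were 4, and 0 with 0.1 TPM added, 7 with 1 TPM added, 8 at 5 TPM, 18 with no filter, 2 with batch as a block and 0 to 2 with 1 library left out, each of the 6 libraries bringing it to 2 or less, and level calls were 122, then 43 with no filter and 43 to 70 with 1 library left out. The cause was not tested. Leaving out 1 library gave 1511 to 1682 usage calls for compound 2, 494 to 541 early ends higher and 82 to 105 lower, 128 to 144 late ends higher and 244 to 303 lower, and 1105 to 1293 calls for compound 2 minus knockdown. It gave 1438 to 1738 usage and 2197 to 2493 level calls for nuclear minus cytoplasmic and 1982 to 2107 level calls for compound 2, where a lone fraction library is assumed to vary like the other groups. Knockdown in total and nuclear RNA and its effect on the nuclear difference stayed at 0, and in cytoplasmic RNA the range was 0 to 14. Of 30 values of single transcripts, 26 kept their call with 0.1 TPM added, the others being CDS2-206, HOMEZ-202, AMN1-210 and OAF-203 (limma adjusted p = 0.0762, 0.0525, 0.0642 and 0.097), and 27 with the replicate block, the others being CDS2-206, HOMEZ-202 and OAF-203 (0.0752, 0.0809 and 0.0724), which moved no other count of calls by over 1.5 times. Counts restricted by sequence of their own or by level outside the contrast were chosen after seeing the data. Without read totals, depth cannot be weighed.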

Other observations

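Shares of some processed transcripts differed widely between the 2 tables in cells with the same control siRNA. Of 2321 with a share of at least 10% in every control library of 1 table, 380 (16.4%) were more than 10 times apart, with ranges that did not overlap, between whole-cell libraries and total RNA of the fractionation experiment. Among all transcripts tested in either table the same rule gave 3135 of 26306 (11.9%), and among coding ones 2159 of 19656 (11.0%). Of the 380, 140 were higher in the whole-cell table and 240 in the fractionation table, and 168 (44.2%) had under 5% of 31-base words of their own, against 728 (31.4%) of the 2321.

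Among the 8 most abundant of these, chosen after their values were seen, PDIA3-205, of a protein disulfide isomerase gene, held 30.8, 24 and 22.8% of its gene in whole cells and was listed at 0 in both total RNA libraries. HMGA1-206, of a chromatin protein gene, held 19.6, 17.7 and 12.4% and was likewise listed at 0. RAB10-203, of a small GTPase gene, was at 0, 0.922 and 0% in whole cells and at 49.0 and 38.3% in total RNA. SLC3A2-205, of an amino acid transporter subunit gene, was at 0.741, 0.817 and 1.11% and at 39.7 and 41.4%. The labels do not say whether the tables were quantified together, and KRT19, EPCAM and LUM also differ between them in these cells, so the values are given side by side with no test.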
